A study of Mus musculus with 6 samples.

Results

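The glutathione peroxidases of the mouse are encoded by 8 genes, Gpx1 to Gpx8, which were taken by gene symbol from the count table of a whole-epididymis RNA-seq experiment. All 8 were listed among 57127 genes, and all 8 were among the 19691 genes with enough counts to be tested. The libraries came from adult C57BL/6 mice, 3 of wild type (WT) and 3 of Ocln-KO genotype, and the question asked of them was how the epididymis changes without occludin, a protein of the tight junctions that seal the epithelium. The Ocln-/- mice were bred from heterozygous parents, so the mutation was carried by every cell of the body and from conception on. All animals were housed under the same conditions, and the labels name no drug or other agent for either group. The methods describe RNA extracted separately from 3 pairs of mice but also speak of a pooled RNA sample, so whether each library stands for 1 mouse is not stated. The p-values therefore set the difference between genotypes against the spread between these libraries, which may not be the spread between mice.

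Glutathione peroxidases reduce hydrogen peroxide and lipid hydroperoxides with electrons taken from glutathione. In the mouse, Gpx1 to Gpx4 carry selenocysteine at the active site, an amino acid that is read from a UGA codon with the help of a hairpin in the mRNA, whereas Gpx5 to Gpx8 carry cysteine there. In the epididymis these enzymes are known for shielding maturing sperm, whose membranes are rich in polyunsaturated fatty acids, from peroxides in the duct, and Gpx3 and Gpx5 are secreted into its lumen.

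The codon that divides the family is printed here within the stretch of each mRNA around it. The genes called higher (Gpx5 and Gpx6) and the gene called lower (Gpx3) lie on opposite sides of this division. The uncalled members were mixed. Gpx8, with cysteine, had a log2 fold change of -0.50 and Gpx1, with selenocysteine, one of 0.24, while Gpx2 and Gpx4 were below 0 and Gpx7 above it. Each line gives the coding strand from 5′ to 3′ as DNA letters from the GENCODE transcripts of GRCm38, the build to which the reads were aligned, with 15 bases on each side of the active-site codon, which stands in capitals.
Gpx1: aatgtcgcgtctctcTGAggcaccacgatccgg
Gpx2: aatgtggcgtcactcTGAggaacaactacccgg
Gpx3: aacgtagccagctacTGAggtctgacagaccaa
Gpx4: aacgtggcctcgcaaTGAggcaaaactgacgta
Gpx5: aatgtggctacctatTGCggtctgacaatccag
Gpx6: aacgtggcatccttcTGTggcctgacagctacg
Gpx7: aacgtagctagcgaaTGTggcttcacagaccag
Gpx8: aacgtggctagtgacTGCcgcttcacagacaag
The codon is TGA, annotated as selenocysteine, in Gpx1 to Gpx4, TGC in Gpx5 and Gpx8, and TGT in Gpx6 and Gpx7. It is codon 73 of the coding sequence in Gpx3, Gpx5 and Gpx6 alike. These 3 are also the most similar genes of the family, since the coding sequences of Gpx5 and Gpx6 were identical at 73.5% of aligned positions, those of Gpx3 and Gpx5 at 72.9% and those of Gpx3 and Gpx6 at 71.7%. Their longest shared runs without a mismatch were 35, 40 and 32 bases in the same order, shorter than the sequenced reads. How the counting treated reads with several alignments is not stated.

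Total counts were 30646424 to 38870780 per library, so a count of 3 corresponded to 0.0802 to 0.0942 CPM (counts divided by TMM-scaled library size, a relative abundance). Ocln itself, the check of the genotype, stood at 85.9, 78.8 and 91.8 CPM in the WT libraries replicates 1, 2 and 3 and at 15.1, 15.3 and 14.9 CPM in Ocln-KO replicates 1, 2 and 3. It was lower in each Ocln-KO library (log2 fold change -2.50, SE 0.09, Benjamini-Hochberg adjusted p = 0.000108, edgeR quasi-likelihood test). Reads of Ocln thus remained in Ocln-KO, at 0.177 of the WT level. Counts per gene do not show which part of the gene they cover. Ocln-KO replicate 3 stood apart on the first principal component, which held 47.2% of the variance, at 86.3 against 17.7 and 29.1 for the other Ocln-KO libraries and -52.8 to -37.0 for WT. Of 10 markers of the initial segment and caput, the head of the epididymis, 4 had at most 20 counts in every library and were not tested. These were Lcn9, Cst11, Adam28 and Rnase10, which are named here after their values were seen, and the tissue label is a whole epididymis. Of 6 markers of the distal epididymis, the 5 Hox genes had at most 3 counts in every library and Crisp1 carried the list.

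Of the 8 peroxidase genes, 3 passed the threshold of an adjusted p under 0.05, with Gpx3 lower and Gpx5 and Gpx6 higher in Ocln-KO. Over all genes tested, 5.04% passed as lower and 3.91% as higher, or 992 and 770 genes (8.95% in either direction), and with scaling by total counts alone the split was 674 lower and 1175 higher. Gpx3, the most abundant member in WT, was 2.15-fold lower, Gpx5 was 69.5-fold higher and Gpx6 was 10.3-fold higher. The folds of Gpx5 and Gpx6 are over WT means of 84.2 and 0.831 CPM, in libraries where several caput markers were near 0. Whether these WT levels are usual for a whole epididymis was not tested. All 3 calls were lost when any 1 of the WT libraries or Ocln-KO replicate 2 was left out, and all 3 were kept without Ocln-KO replicate 1 or 3. The number of genes called across the whole table fell from 1762 to 23, 230 and 56 without WT replicates 1, 2 and 3, and to 562 without Ocln-KO replicate 2.

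**Figure D1:**
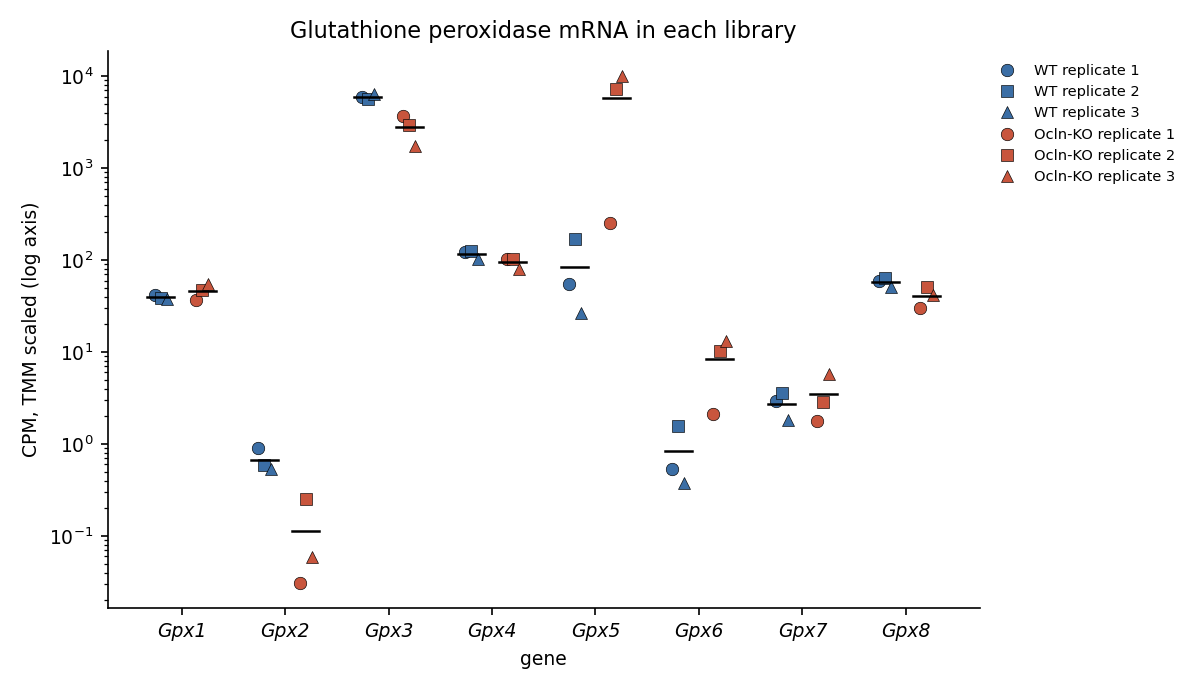
CPM on a log axis for the 8 genes, with 1 point per library, blue for WT and red for Ocln-KO, a marker shape for each replicate number and black bars for the group means. Gpx3 lies lower in all 3 Ocln-KO libraries, whereas Gpx5 and Gpx6 lie higher, with Ocln-KO replicate 1 far below replicates 2 and 3 for both.

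Gpx3, the secreted selenoprotein of plasma and epididymal fluid (ENSMUSG00000018339, chr11:54902453-54910377, + strand), was measured at 5888, 5725 and 6443 CPM in the WT libraries replicates 1, 2 and 3. It was measured at 3670, 2952 and 1756 CPM in Ocln-KO replicates 1, 2 and 3. The WT libraries lay close together and the Ocln-KO libraries lay below all of them, with replicate 3 the lowest. The mean fell from 6018 ± 376 to 2793 ± 967 CPM (SD, n = 3), and the log2 fold change was -1.11 (SE 0.25, adjusted p = 0.037, edgeR quasi-likelihood test, Benjamini-Hochberg adjusted). Ranked by CPM among all genes, Gpx3 was number 8, 9 and 6 in the WT libraries and number 12, 17 and 33 in the Ocln-KO libraries. Its share of all counts was 0.567, 0.557 and 0.628% in WT and 0.384, 0.298 and 0.181% in Ocln-KO. Without WT replicates 1, 2 and 3 the adjusted p of Gpx3 was 0.125, 0.0891 and 0.128 in edgeR's quasi-likelihood test, and without Ocln-KO replicate 2 it was 0.0853. Without Ocln-KO replicate 3, the library that stood apart, Gpx3 was still called lower, with a log2 fold change of -0.86 and an adjusted p of 0.0102 in the same test. In bulk tissue, fewer cells of a type and less RNA per cell cannot be told apart.

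The libraries with less Gpx3 also differed in marker lists of other cells. Crisp1, a secreted sperm-coating protein of the distal duct, summed with its list to 12488 to 16769 CPM in the WT libraries and to 9957, 9160 and 4439 CPM in Ocln-KO replicates 1, 2 and 3, with replicate 3 the lowest, as for Gpx3. Crisp1 was not called in edgeR's quasi-likelihood test (log2 fold change -0.92, SE 0.29, adjusted p = 0.0855). DESeq2 called it lower. Of the 6 tested clear cell markers, 4 were called lower, against 5.04% of all genes tested. The summed level overlapped (271 to 341 CPM in the WT libraries, 171 to 402 CPM in Ocln-KO). Most of this sum was Rhcg, which was not called. Rhcg stood at 201, 252 and 165 CPM in the WT libraries and at 125, 322 and 349 CPM in Ocln-KO. Each other marker on this list was lower in every Ocln-KO library than in any WT library, as were 19.4% of all genes tested. The 6 fibroblast markers summed to 2496 to 2745 CPM in the WT libraries and to 1961, 2716 and 5459 CPM in Ocln-KO, and the 8 macrophage markers to 201 to 240 CPM in the WT libraries and 246, 288 and 435 CPM in Ocln-KO, with 0 genes called by edgeR in either list (2 fibroblast and 6 macrophage markers at an unadjusted p under 0.05, and 0 and 3 genes called by DESeq2). Ocln-KO replicate 3, which had the lowest Gpx3, was the highest library for both of these lists. Over all genes tested, 29.1% had an unadjusted p under 0.05 in edgeR's quasi-likelihood test, and DESeq2 called 16.8% in either direction. Red blood cell markers summed to 21.9 to 49.6 CPM in the 3 WT libraries and 6.04 to 13.2 CPM in the 3 Ocln-KO libraries, and adipocyte markers to 5.51 to 9.64 and 0.0592 to 3.65 CPM. Of the 5 adipocyte markers 0 were called by edgeR or DESeq2, with 2 at an unadjusted p under 0.05 in edgeR's test. Of the red blood cell list 1 of 5 genes, Alas2, was called lower (log2 fold change -1.99, SE 0.43, adjusted p = 0.035, edgeR quasi-likelihood test). Of the basal cell list 1 of 5, Krt14, was called higher (0.58, SE 0.11, adjusted p = 0.0276 in the same edgeR test), while the summed level overlapped (224 to 228 CPM in the WT libraries, 228.02 to 273 CPM in Ocln-KO). Both genes are named after their values were seen. The part of these cell types in the level of Gpx3 was not tested.

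Gpx5, the epididymal secretory glutathione peroxidase, which is made by principal cells of the caput under androgen control (ENSMUSG00000004344, chr13:21286429-21292731, - strand), had 2037, 5863 and 978 counts in WT replicates 1, 2 and 3. It had 8221, 231451 and 339223 counts in Ocln-KO replicates 1, 2 and 3. The corresponding levels were 54.5, 172 and 26.3 CPM in the WT libraries and 256, 7264 and 10039 CPM in Ocln-KO. Each Ocln-KO library exceeded each WT library, but Ocln-KO replicate 1 lay much nearer to WT replicate 2 than to the other Ocln-KO libraries. The mean was 84.2 ± 77.2 CPM in the WT libraries and 5853 ± 5042 CPM in Ocln-KO (SD, n = 3). The log2 fold change was 6.12 (SE 1.34, adjusted p = 0.0359, edgeR quasi-likelihood test, Benjamini-Hochberg adjusted).

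The spread of Gpx5 within a genotype was wider than that of 99.7% of 16358 genes in WT and of 99.9% in Ocln-KO. These are the tested genes with a mean of at least 1 CPM over all libraries. The highest library exceeded the lowest 6.52-fold in WT and 39.2-fold in Ocln-KO, and the SD of log2 CPM was 1.36 in WT and 2.93 in Ocln-KO, against medians over these genes of 0.15 and 0.19. By rank, Gpx5 moved from number 4160, 1100 and 6850 among all genes in the WT libraries to number 597, 6 and 3 in the Ocln-KO libraries. In Ocln-KO replicate 3 a single gene, Gpx5, held 1.03% of all counts, and in WT replicate 3 it held 0.00257%. Without WT replicates 1, 2 and 3 the adjusted p of Gpx5 in edgeR's quasi-likelihood test was 0.14, 0.074 and 0.132, and without Ocln-KO replicate 2 it was 0.0762. Leaving out WT replicate 2 raised the log2 fold change to 7.18, and leaving out Ocln-KO replicate 3 lowered it to 5.49 with the call kept (adjusted p = 0.0309 in the same test).

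The markers of the initial segment and caput were compared in the same libraries. Of 10 on the list 6 were tested and 0 passed edgeR's test, with 0 also at an unadjusted p under 0.05 and 0 called by DESeq2 or limma-voom. The summed level of the list was 6225 to 8857 CPM in the WT libraries and 5369, 9681 and 6839 CPM in Ocln-KO replicates 1, 2 and 3, and most of it was Adam7, a sperm-binding membrane protein. The sum in Ocln-KO replicate 2 lay above every WT library and that in replicate 3 within the WT range. Adam7 carried the sum and 4 of the 10 markers were near 0. Of those tested, Lcn8, Cst8 and Etv4, named after their values were seen, were low as well. Their means were 1.76, 0.512 and 0.29 CPM in the WT libraries and 1.81, 0.469 and 0.825 CPM in Ocln-KO. The absence of calls on this list therefore says little about these segments, and their part in the Gpx5 level was not tested.

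Gpx6, the closest relative and neighbour of Gpx5, is best known from the olfactory epithelium (ENSMUSG00000004341, chr13:21312125-21319624, + strand). It had 20, 54 and 14 counts in WT and 68, 330 and 441 counts in Ocln-KO, or 0.535, 1.58 and 0.377 CPM against 2.12, 10.4 and 13.1 CPM, replicates 1 to 3 in turn. All Ocln-KO libraries lay above all WT libraries, and the libraries ranked as they did for Gpx5. The log2 fold change was 3.36 (SE 0.76, adjusted p = 0.0383, edgeR quasi-likelihood test, Benjamini-Hochberg adjusted). Without WT replicates 1, 2 and 3 the adjusted p of Gpx6 was 0.144, 0.0623 and 0.139 and without Ocln-KO replicate 2 it was 0.0887 in the same edgeR test, and without WT replicate 2 the log2 fold change was 4.21. limma-voom gave an adjusted p of 0.106.

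Gpx5 and Gpx6 are transcribed from opposite strands, with 19393 bases between them and 0 other protein-coding genes in that interval. In the annotation the nearest protein-coding genes outside the pair are Trim27 and Olfr1368 on one side and Olfr1367 and Zscan12 on the other. Trim27, a ubiquitin ligase, had a log2 fold change of -0.16 (SE 0.11, adjusted p = 0.372) and Zscan12, a zinc-finger gene, one of 0.05 (SE 0.18, adjusted p = 0.885) in edgeR's quasi-likelihood test, and both olfactory receptor genes had 0 counts in every library. The pair did not keep a fixed ratio. Gpx5 had 102, 109 and 69.9 counts per Gpx6 count in WT and 121, 701 and 769 in Ocln-KO, so that the ratio was higher in each Ocln-KO library than in any WT library. The mean log2 ratio of Gpx6 to Gpx5 fell by 2.13 (exact two-sided permutation p = 0.1, the smallest that 3 against 3 libraries allow).

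**Figure D2:**
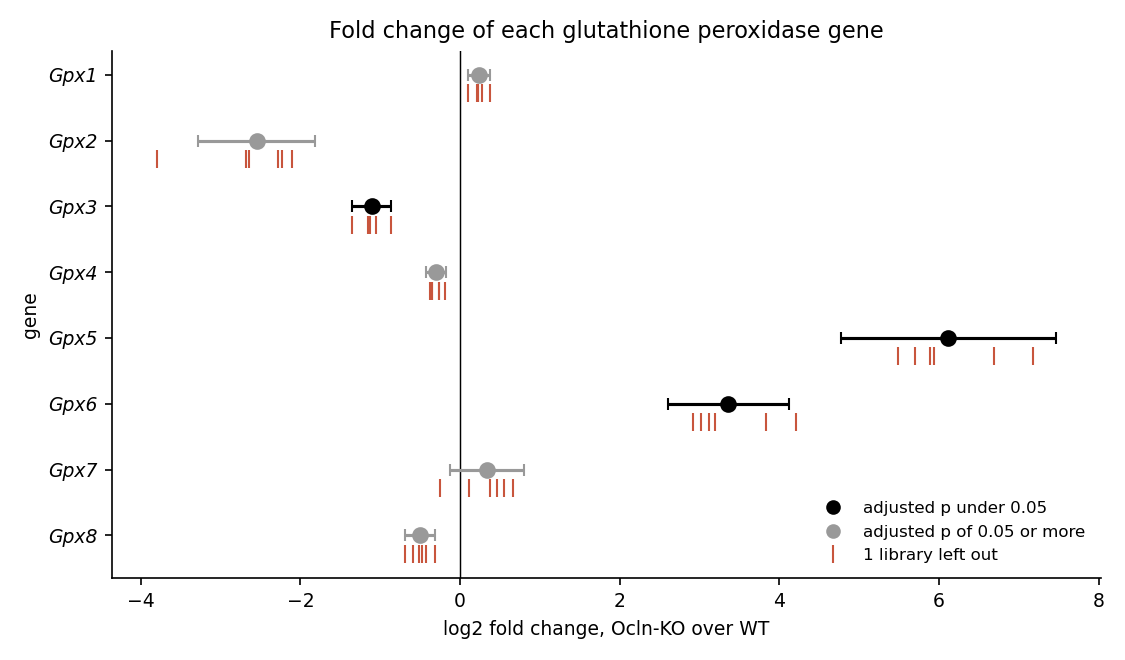
log2 fold change of Ocln-KO over WT for the 8 genes, with circles for the estimate, error bars for 1 SE, black where the adjusted p was under 0.05 and grey where it was not, and red ticks for the 6 estimates with 1 library left out. Gpx3, at -1.11, and Gpx5 and Gpx6, at 6.12 and 3.36, kept their side of 0 in every tick, while the ticks of Gpx7 lie on both sides of 0.

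Of the other selenocysteine members, Gpx1, Gpx2 and Gpx4, none passed the threshold in edgeR, and Gpx2 passed it in DESeq2. Gpx1, the general peroxidase of the cytosol (ENSMUSG00000063856, chr9:108338903-108340343, + strand), stood at 41.5, 39.1 and 38.0 CPM in the WT libraries and at 37.2, 47.4 and 55.3 CPM in Ocln-KO. Its groups overlapped through Ocln-KO replicate 1, and the log2 fold change was 0.24 (SE 0.14, adjusted p = 0.309, edgeR quasi-likelihood test, Benjamini-Hochberg adjusted). Gpx4, which reduces lipid hydroperoxides within membranes and also forms part of the sperm midpiece (ENSMUSG00000075706, chr10:80047166-80056439, + strand), stood at 124, 125 and 103.9 CPM in the WT libraries and at 103.5, 102 and 80.7 CPM in Ocln-KO. The highest Ocln-KO library lay only just under the lowest WT library, and the log2 fold change of -0.30 (SE 0.13) had an adjusted p of 0.16 in edgeR's test. Of 19691 genes tested, 19.4% had all Ocln-KO libraries below all WT libraries and 16.9% had them above, 36.3% together, so an absence of overlap alone was common. The 8 sperm and spermatid markers, of which 7 were tested, summed to 297 to 370 CPM in the WT libraries and to 408, 411 and 96.5 CPM in Ocln-KO replicates 1, 2 and 3, so the library with the lowest Gpx4 also had the lowest sperm marker sum. The part of sperm RNA in the Gpx4 level was not tested.

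Gpx2, the peroxidase of the gut lining (ENSMUSG00000042808, chr12:76792333-76795554, - strand), was near the limit of detection. It had 34, 20 and 20 counts in WT and 1, 8 and 2 counts in Ocln-KO replicates 1, 2 and 3. All Ocln-KO libraries lay below all WT libraries, and 2 of them had fewer than 3 counts. Over the groups, 74 counts in WT against 11 in Ocln-KO gave a ratio of 6.05 after scaling, with an exact 95% interval of 3.19 to 12.6 that covers counting error only. The fitted log2 fold change was -2.55 (SE 0.73), and the adjusted p was 0.0683 in edgeR's quasi-likelihood test and 0.0339 in DESeq2. Without Ocln-KO replicate 2, which held 8 of the 11 counts, Gpx2 had a log2 fold change of -3.80 with an adjusted p of 0.0536 in the same edgeR test. Gpx2 lies wholly within Fntb, a farnesyltransferase subunit gene on the opposite strand, which had 18.8 to 23.2 CPM in the WT libraries and 15.2 to 17.3 CPM in Ocln-KO, and without the strand setting of the counting, which is not stated, reads of the pair may not have been told apart.

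Both cysteine members of the endoplasmic reticulum, where they use peroxide in oxidative protein folding, overlapped between the groups. Gpx7 (ENSMUSG00000028597, chr4:108400390-108406961, - strand) stood at 2.91, 3.55 and 1.80 CPM in the WT libraries and at 1.78, 2.86 and 5.80 CPM in Ocln-KO. The log2 fold change was 0.34 (SE 0.46, adjusted p = 0.67, edgeR's quasi-likelihood test), and it turned to -0.25 without Ocln-KO replicate 3, the highest library. Gpx8 (ENSMUSG00000021760, chr13:113042753-113046410, - strand) stood at 59.9, 63.9 and 50.9 CPM in the WT libraries and at 30.5, 51.2 and 41.9 CPM in Ocln-KO. Ocln-KO replicate 2 slightly exceeded WT replicate 3, and the log2 fold change was -0.50 (SE 0.18, adjusted p = 0.122, edgeR's quasi-likelihood test). Gpx8 lies within Cdc20b on the opposite strand, a gene with at most 9 counts in any library.

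To compare the genes with each other, CPM was divided by transcript length in kilobases. In WT the mean level per kilobase was 3776 ± 236 for Gpx3 and 118 ± 11.9 for Gpx4, and these 2 genes were separated from each other and from the rest in every library. Next came Gpx8 at 55.9 ± 6.43, Gpx5 at 50.3 ± 46.1 and Gpx1 at 36.9 ± 1.65 CPM per kilobase (SD, n = 3), where the range of Gpx5, 15.7 to 103, covered the ranges of both others. Gpx7 at 2.14, Gpx2 at 0.635 and Gpx6 at 0.62 CPM per kilobase were lowest, and Gpx2 and Gpx6 overlapped.

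In Ocln-KO the order by mean level per kilobase began with Gpx5 at 3497 ± 3012 and Gpx3 at 1752 ± 606, whose ranges of 153 to 5997 and 1102 to 2302 overlapped. Gpx4 followed at 95.9 ± 12.9, apart from its neighbours, then Gpx1 at 43.5 ± 8.45 and Gpx8 at 39.5 ± 9.95 CPM per kilobase, which overlapped. Gpx6 at 6.35 and Gpx7 at 2.70 overlapped, and Gpx2 at 0.107 CPM per kilobase was lowest without overlap. Gpx6 thus stood sixth of the genes in Ocln-KO and last in WT.

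The make-up of the family by active site followed from Gpx3 and Gpx5. The selenocysteine members Gpx1 to Gpx4 made up 97.7, 95.7 and 98.4% of the summed level per kilobase in WT replicates 1, 2 and 3. They made up 92.9, 31.3 and 16.9% in Ocln-KO replicates 1, 2 and 3. Ocln-KO replicate 1 thus kept a family composition close to WT, and the cysteine members reached 68.7 and 83.1% in Ocln-KO replicates 2 and 3 against 7.05% in replicate 1 and 1.56 to 4.28% in WT.

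**Figure D3:**
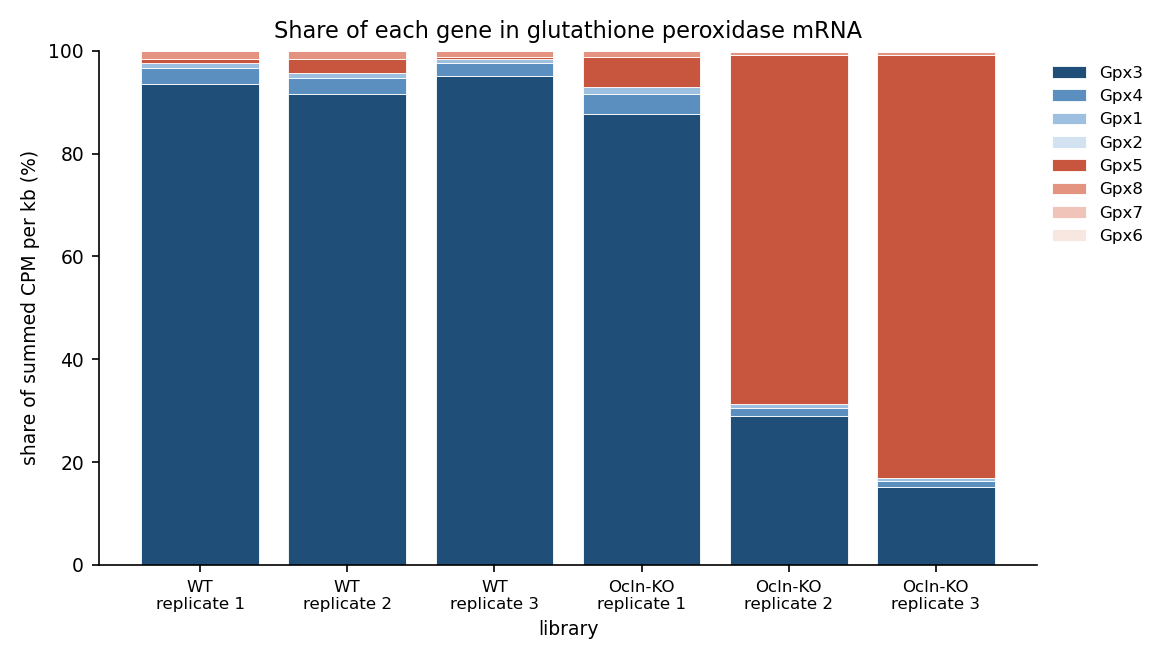
Stacked bars of the share of each gene in the summed CPM per kilobase of the 8 genes, 1 bar per library, with blue shades for the selenocysteine members and red shades for the cysteine members. Gpx3 fills most of the bar in WT and in Ocln-KO replicate 1, and Gpx5 most of the bar in Ocln-KO replicates 2 and 3.

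Within each library the counts of both secreted peroxidases can be compared without any scaling. In WT there were 108, 33.3 and 245 Gpx3 counts for each Gpx5 count, and in Ocln-KO replicate 1 there were 14.3. In Ocln-KO replicates 2 and 3 the ratio was inverted, with 2.46 and 5.72 Gpx5 counts for each Gpx3 count. The mean log2 ratio of Gpx5 to Gpx3 was -6.58 ± 1.45 in WT and -0.01 ± 3.37 in Ocln-KO, a difference of 6.57 (exact two-sided permutation p = 0.1, the smallest that 3 against 3 libraries allow). The difference was 8.49 without Ocln-KO replicate 1, 5.92 without Ocln-KO replicate 2, 5.31 without Ocln-KO replicate 3, and 7.34 and 5.90 without WT replicates 2 and 3.

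The summed level of all 8 genes did not separate the genotypes. It was 6172, 6130 and 6664 CPM in the WT libraries and 4101, 10431 and 11993 CPM in Ocln-KO, with Ocln-KO replicate 1 below and replicates 2 and 3 above every WT library (difference of means 2520 CPM, exact two-sided permutation p = 0.4). Without Gpx5 the sum was 6117, 5958 and 6638 CPM in the WT libraries and 3845, 3167 and 1953 CPM in Ocln-KO. The difference of means was -3250 CPM (exact two-sided permutation p = 0.1, the smallest possible here). Nearly all of this sum was Gpx3, so it restates the Gpx3 values and adds no separate result.

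The genes whose profile over the 6 libraries was most like that of each called member were found by the root-mean-square (RMS) difference between log2 CPM values centred on each gene's mean. For Gpx3 they were Abo, a blood-group glycosyltransferase, Cpeb1, a regulator of polyadenylation in the cytoplasm, and Srxn1, the sulfiredoxin that restores overoxidised peroxiredoxins, with RMS differences of 0.08, 0.0805 and 0.0805 log2 units. Srxn1 stood at 251, 254 and 303 CPM in the WT libraries and at 144, 133 and 78.1 CPM in Ocln-KO. Abo, the nearest, stood at 54.7, 53.4 and 55.8 CPM in the WT libraries and at 35.9, 30.1 and 15.6 CPM in Ocln-KO. These genes were picked for a profile like that of Gpx3, so their lower level in Ocln-KO follows from the choice and no p-value is given for it.

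For Gpx5 the nearest profiles were much less close, at RMS differences of 1.004 for Spag11b, a secreted epididymal protein related to the defensins, 1.26 for Slc38a5, a transporter of neutral amino acids, and 1.33 for D730048I06Rik. Spag11b stood at 0.294, 0.527 and 0.135 CPM in the WT libraries and at 1.09, 144 and 215 CPM in Ocln-KO. Slc38a5 stood at 40.7, 51.8 and 35.7 CPM in the WT libraries and at 46.0, 1286 and 1146 CPM in Ocln-KO. As for Gpx5, Ocln-KO replicates 2 and 3 were the high libraries for both, and for Slc38a5 replicate 1 lay inside the WT range. For Gpx6 the nearest were 4933406B17Rik, Defb15, a beta-defensin, and D730048I06Rik, at 0.429, 0.485 and 0.488 log2 units. Defb15 stood at 22.3, 27.4 and 16.8 CPM in the WT libraries and at 63.7, 310 and 228 CPM in Ocln-KO. These genes were picked for profiles like those of Gpx5 and Gpx6, so their higher level in Ocln-KO follows from the choice. Spag11b and 4933406B17Rik had WT means of 0.319 and 0.308 CPM and Ocln-KO means of 120 and 4.49 CPM. They thus reached the required mean of at least 1 CPM only through the Ocln-KO libraries. These likenesses are descriptions over 6 libraries that share the genotype contrast.

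**Figure D4:**
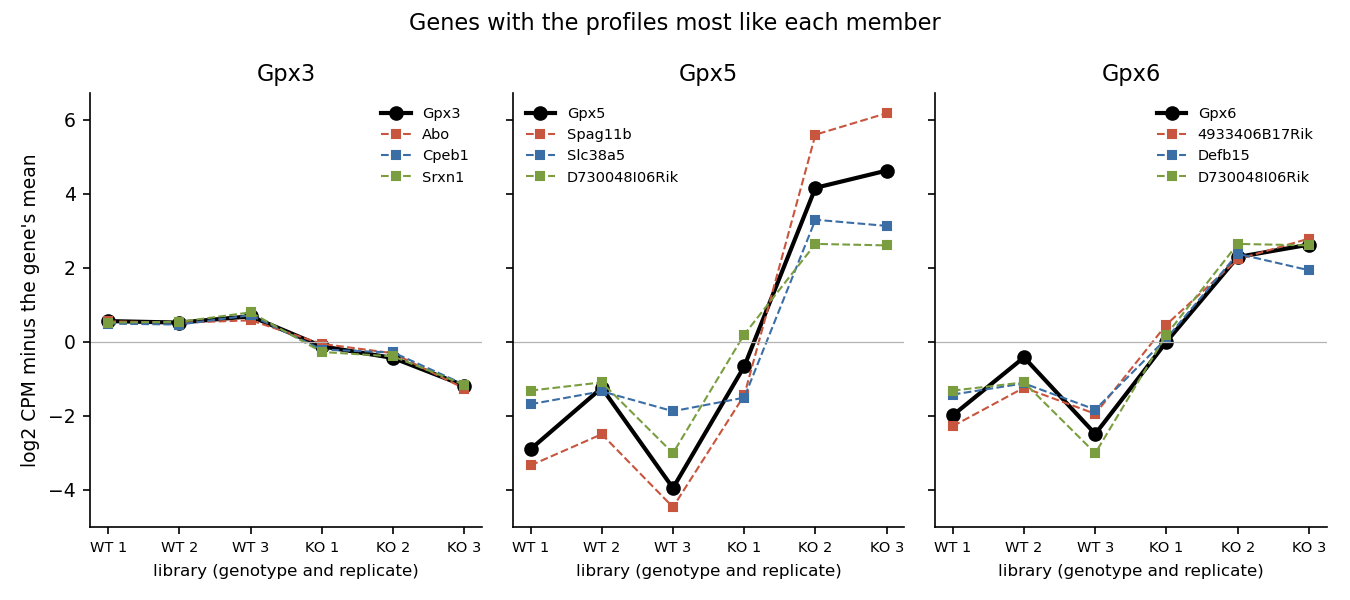
log2 CPM minus each gene's own mean over the 6 libraries, for Gpx3, Gpx5 and Gpx6 (black) and the 3 genes with the nearest profiles (coloured dashed lines), with the libraries of each genotype along the horizontal axis. The lines of Gpx3 and its neighbours nearly coincide, whereas those around Gpx5 lie further apart and are all highest in Ocln-KO replicates 2 and 3.

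Around the peroxidases, genes of glutathione supply and recycling were measured next. Of 18 listed, 17 were tested, 3 were called lower and 0 higher in Ocln-KO (5.04% and 3.91% over all genes tested), with 14 of 17 fold changes below 0 and a median log2 fold change of -0.26 against 0.01 over all genes tested. Slc7a11, which imports cystine for glutathione synthesis, stood at 624, 518 and 359 CPM in the WT libraries and at 317, 296 and 254 CPM in Ocln-KO (log2 fold change -0.79, SE 0.19, adjusted p = 0.0465, edgeR's quasi-likelihood test). Gclc, the catalytic subunit of the enzyme that sets the rate of glutathione synthesis, stood at 84.4, 86.7 and 87.1 CPM in the WT libraries and at 67.2, 62.5 and 59.8 CPM in Ocln-KO (-0.45, SE 0.08, adjusted p = 0.0246 in the same edgeR test). Gss, which completes glutathione, stood at 22.0, 23.4 and 22.9 CPM in the WT libraries and at 14.9, 15.2 and 11.4 CPM in Ocln-KO (-0.72, SE 0.14, adjusted p = 0.0268 in the same edgeR test). All 3 genes were lower in each Ocln-KO library than in any WT library, as were 19.4% of all genes tested. All 3 calls were lost without any 1 of the WT libraries or Ocln-KO replicate 2, that of Slc7a11 was lost also without Ocln-KO replicate 1 or 3, and the 3 fold changes were smaller than 2-fold.

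Genes that bring in selenium or insert selenocysteine, on which Gpx1 to Gpx4 depend, included 2 called lower and 0 called higher among 13 tested, where 5.04% and 3.91% of all genes were called. Of the 13 fold changes 10 were below 0, with a median log2 fold change of -0.13 against 0.01 over all genes tested. DESeq2 called 3 lower and 1 higher, and it called 16.8% of all genes tested in either direction. The higher gene was Lrp8, named after its values were seen. Lrp8 stood at 55.7, 50.9 and 42.6 CPM in the WT libraries and at 69.0, 65.7 and 65.6 CPM in Ocln-KO. It just missed the threshold in edgeR's quasi-likelihood test (0.43, SE 0.11, adjusted p = 0.0533). With scaling by total counts alone or by RLE, another scaling method, edgeR called Lrp8 as well. It also did so with no filter on low counts or with at least 10 counts required in every library. With any 1 library left out edgeR did not call Lrp8. Lrp2, the endocytic receptor megalin, whose ligands include selenoprotein P, stood at 740, 742 and 918 CPM in the WT libraries and at 475, 332 and 208 CPM in Ocln-KO (log2 fold change -1.24, SE 0.27, adjusted p = 0.0351, edgeR's quasi-likelihood test). Sephs2, which makes the selenium donor for selenocysteine and is itself a selenoprotein, stood at 64.9, 53.3 and 63.7 CPM in the WT libraries and at 42.7, 40.0 and 29.7 CPM in Ocln-KO (-0.69, SE 0.15, adjusted p = 0.0351 in the same edgeR test). Lrp2 and Sephs2 were lower in each Ocln-KO library than in any WT library, as were 19.4% of all genes tested. Both were lowest in replicate 3, the library that stood apart on the first principal component. Of the other selenoproteins, 16 of 18 were found in the table, 15 were tested and 1 was called lower, a share near the 5.04% over all genes. It was Selenos, a membrane protein of the endoplasmic reticulum listed under the older symbol Vimp (-0.39, SE 0.08, adjusted p = 0.0314 in the same edgeR test). Its levels were 103, 94.4 and 95.0 CPM in the WT libraries and 71.7, 75.7 and 75.3 CPM in Ocln-KO. On that list 9 of the 15 fold changes were below 0, with a median log2 fold change of -0.11 against 0.01 over all genes tested. The calls of Lrp2, Sephs2 and Selenos were lost without any 1 of the WT libraries or Ocln-KO replicate 2, and that of Selenos also without Ocln-KO replicate 1, where Txnrd1, a thioredoxin reductase, was called instead.

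**Figure D5:**
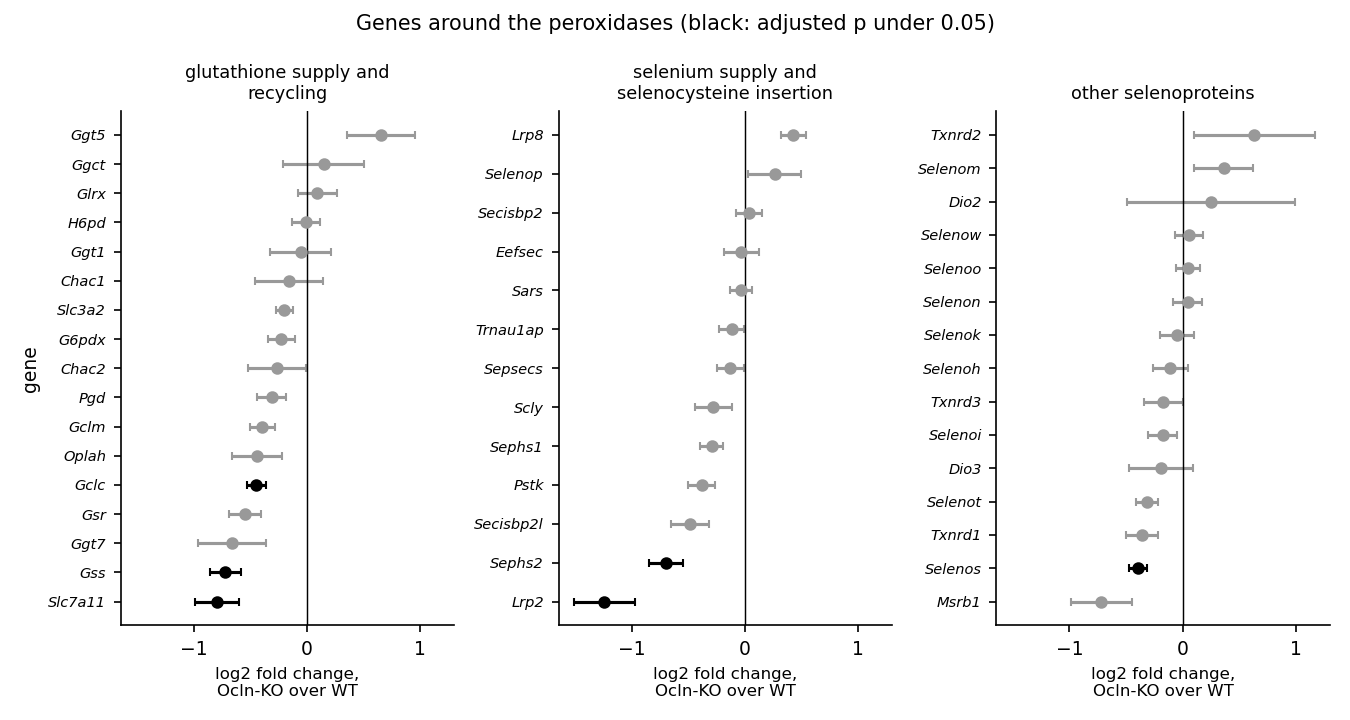
log2 fold change of Ocln-KO over WT with 1 SE for the tested genes of 3 lists (glutathione supply and recycling, selenium supply and selenocysteine insertion, other selenoproteins), sorted by value and drawn in black where the adjusted p was under 0.05. The 6 black points, Slc7a11, Gclc, Gss, Lrp2, Sephs2 and Selenos, all lie below 0.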

How the data were processed

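Adult whole-epididymis RNA was depleted of rRNA and sequenced as directional paired-end libraries. The authors aligned reads to GRCm38 with HISAT2 2.0.4 (version per the labels) and counted with HTSeq, and the deposited values are raw counts per gene. The labels' extraction text names another tissue, prefrontal cortex. No pair of libraries was identical. From the counts, CPM (counts per TMM-scaled library size) were computed, and edgeR 4.0.16 (TMM factors, filterByExpr, quasi-likelihood test, R 4.3.3) was fitted on all genes with genotype as the only term, and p-values were adjusted over 19691 genes. SEs were derived from the F statistic of each gene and its log2 fold change. Single values were compared by exact permutation. limma 3.58.1 and DESeq2 1.42.0 were alternatives, besides other scalings, filters, a replicate block, a 2-fold minimum and leaving out each library. Scripts were tested on simulated data. Members and lists were chosen with earlier results of these data known. Named genes are all members, Ocln, called genes of the pathway lists, the 3 nearest profiles (mean of at least 1 CPM) of called members, and overlapping or flanking genes. Markers were named where at 0 or most abundant, with the exceptions given. Positions and transcripts are from GENCODE. In the table, 27 symbols had turned into dates and 2 were repeated.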

Additional observations from a re-analysis of the deposited data

How the results depend on the processing

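Over 14 alternatives each, the fold changes of Gpx1, Gpx3, Gpx4, Gpx5, Gpx6 and Gpx8 kept their sign, as did that of Gpx2 over 13, and Gpx7 turned to -0.25 without Ocln-KO replicate 3 and ranged up to 0.66 with another library left out. Gpx3 passed the threshold under 9 of 14 (adjusted p 5.12e-05 to 0.128), Gpx5 under 9 (0.000131 to 0.14) and Gpx6 under 8 (0.00338 to 0.144). The members called lower numbered 1, but 2 with DESeq2, and those called higher 2, but 1 with limma-voom. With 1 library left out these counts ranged from 0 to 1 and from 0 to 2. In edgeR, 6 of the 8 members had an unadjusted p under 0.05, as did 29.1% of all genes tested, and 4 to 6 members with 1 library left out. Whether the replicate numbers pair the libraries is not stated. Deviations from the group means correlated at -0.0525 to -0.00256 between same-numbered libraries and at -0.0829 to 0.127 between differently numbered ones. With 3 libraries per group these values cannot decide whether the libraries were paired. With the replicate block 0 members and 0 genes of the 3 pathway lists were called (31 lower and 10 higher over all genes), with 6 members at an unadjusted p under 0.05. Genes called for glutathione supply numbered 3 (DESeq2 5, 0 past 2-fold, 0 to 3 with 1 library left out), for selenium supply 2 (DESeq2 4, 1 past 2-fold, 0 to 2 with 1 left out) and for other selenoproteins 1 (DESeq2 3, 0 with total counts only, 0 past 2-fold, 0 to 1 with 1 left out). DESeq2 called 1708 genes lower and 1604 higher over the whole table. The causes were not tested. The summed level of the members differed by 2520 CPM, by 5745 CPM without Gpx3 and by 944 to 4890 CPM with 1 library left out. Depth limited Gpx2, with 11 counts in Ocln-KO.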
